A study of Mus musculus with 6 samples.

Results

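The genes examined here were the 10 that encode the Toll-like receptor adaptors Myd88, Tirap, Ticam1 and Ticam2, the interleukin-1 receptor-associated kinases Irak1, Irak2, Irak3 and Irak4, and the ubiquitin ligases Traf3 and Traf6. They were taken by gene name from the deposited table of 54532 genes, and each name matched 1 row. They were proposed with earlier results of these data known. RNA sequencing had been done on 3 wild type (WT) and 3 progranulin knockout (PGRN KO) libraries of C57BL/6J mouse macrophages that the labels describe as recruited in the peritoneal cavity, with 2000000 plated in each well and all of them exposed to Candida albicans for 6 hours at 1 fungal cell per macrophage. The knockout is constitutive, the age of the donor mice was not found in the labels, and no unchallenged library was analysed, so the comparison is between genotypes in the presence of the fungus. The titles call the WT libraries controls, but their treatment label is the same fungal challenge. The study's text names bone marrow-derived macrophages and another ratio of fungus to cells for this sequencing, and the labels were followed. Nothing in the labels says whether the libraries of a genotype came from separate mice, and p-values then measure the spread between libraries, which may be technical. Values per library are listed below in replicate order, 1, 2 and 3 for WT, then 4, 5 and 6 for PGRN KO.

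Toll-like receptors and the receptors of the interleukin-1 family signal through a shared cytoplasmic TIR domain, which recruits adaptors carrying the same domain. MyD88, brought to some receptors by TIRAP, assembles the Myddosome with IRAK4, IRAK1 and IRAK2, which leads to TRAF6, the kinase TAK1 and NF-kB. TRIF, the product of Ticam1, serves TLR3 and, with the bridging adaptor TRAM from Ticam2, endosomal TLR4, and leads through TRAF3 to TBK1, IRF3 and interferon beta. IRAK-M, the product of Irak3, is largely restricted to monocytes and macrophages and restrains Myddosome signalling. In macrophages these adaptors respond to fungal wall components together with the C-type lectin receptors.

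The libraries held 15996786 to 17551619 counted fragments. Grn, the targeted gene, lay between 323 and 337 FPKM (fragments per kilobase of gene model, scaled to the authors' library size) in WT and between 0 and 0.0167 FPKM in PGRN KO. In WT that library size was 0.974, 0.925 and 1.03 times the counted fragments. In PGRN KO it was 1.05, 1.09 and 1.00 times, mostly larger than in WT, though the ranges overlapped. All 7 macrophage markers examined, Adgre1 and Csf1r among them, had a mean of at least 1 FPKM. Of 4 markers of large peritoneal macrophages, Gata6 (3.78 to 4.26 FPKM in WT, 3.84 to 5.07 in PGRN KO) and Icam2 (2.94 to 3.26 and 4.49 to 5.43) were measured in each library, whereas Timd4 and Selp had means below 0.1 FPKM. Icam2 was separate between genotypes, as were the macrophage markers Csf1r (31.0 to 33.4 FPKM in WT, 23.6 to 25.3 in PGRN KO), Itgam (49.9 to 50.6 and 41.3 to 45.1) and Mertk (1.14 to 1.56 and 2.91 to 3.84). Lyz2 was higher in PGRN KO and separate only by a small margin (5657 to 5851 FPKM in WT, 5873 to 8135 in PGRN KO). Markers of other cells were low, and some of them were separate too. The summed level of 4 B cell markers was 1.41 to 2.47 FPKM in WT against 6.31 to 8.77 FPKM in PGRN KO, and that of 3 mast cell markers 1.14 to 1.33 and 4.70 to 7.08 FPKM. Of 7 neutrophil markers only S100a8 was above 1 FPKM (48.3 to 52.8 in WT and 21.2 to 25.6 in PGRN KO), and Ly6g and Elane were at 0. T cell markers (4 genes) summed to 1.88 to 2.47 FPKM in WT and 2.14 to 4.74 in PGRN KO, and 3 dendritic cell markers to 1.77 to 2.23 and 1.08 to 1.36. Of the latter, Xcr1 (0.971 to 1.34 and 0.324 to 0.451) and Flt3 (0.269 to 0.361 and 0.0935 to 0.145) were lower in PGRN KO. The range of Zbtb46 overlapped (0.532 to 0.583 and 0.571 to 0.764). Markers of fibroblasts (3 genes, up to 1.27 FPKM in sum) and mesothelial cells (3 genes, up to 0.319) had low sums, and both eosinophil markers were at 0. The part of macrophage state or of such cells in the differences below was not tested, and in bulk RNA fewer cells of a type and less RNA per cell cannot be told apart. PGRN KO replicate 6 stood apart, in that its values were lower the longer the gene (Spearman correlation across genes of -0.47, against 0.15 to 0.24 in the other libraries, which describes genes that are not independent replicates).

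All 10 genes were expressed above the limit for testing, a mean of 1 FPKM, and they spanned a wide range of levels. Per length, Irak3 was the most abundant in WT, at 47.5 to 57.3 FPKM. By its mean over all 6 libraries it exceeded 88.9% of the 8882 tested genes. Irak2 (27.96 to 30.7 FPKM) and Myd88 (23.9 to 28.2 FPKM) followed, and their ranges overlapped. Below them the WT ranges were separate from one gene to the next, in the order Traf6, Ticam1, Traf3, Ticam2, Irak1, Tirap and Irak4. Irak4, which encodes the kinase that starts the Myddosome cascade, was the lowest at 1.60 to 1.70 FPKM, or 125 to 154 fragments per WT library. The order differed in PGRN KO, where Myd88 had the highest mean, with a range that overlapped that of Irak3, and where Ticam2 ranked below Irak1 and Irak1 overlapped Traf3.

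**Figure D1:**
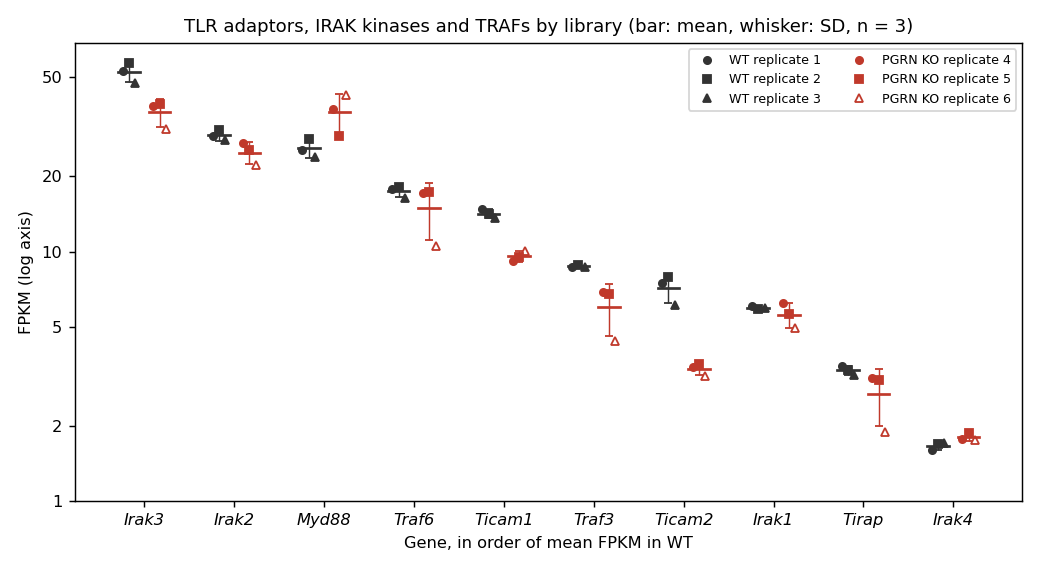
FPKM on a log axis for the 10 genes in each library, with WT in black and PGRN KO in red, a bar at the mean and a whisker for the SD (n = 3). Ticam2, Ticam1 and Irak3 lie lower in all 3 PGRN KO libraries, and Myd88 lies higher. The open triangles of PGRN KO replicate 6 are the lowest for Traf6, Traf3, Tirap, Irak1, Irak2, Irak3 and Ticam2.

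When genotypes were compared with limma over all genes, 3 of the 10 genes passed an adjusted p of 0.05, namely Ticam2, Ticam1 and Irak3, all of them lower in PGRN KO. Over all 8882 tested genes 24.2% passed, 13.8% lower and 10.4% higher, so that the share of the 10 genes lay near the background. No member passed as higher, and 5 members had an unadjusted p under 0.05, against 39.1% of all genes. The median log2 fold change of the 10 was -0.24, compared with -0.03 over all genes. Of the 10, 8 were lower and 2 higher, whether called or not, and 53.3% of all tested genes were lower. The ranges of the genotypes were separate for 8 of the 10 genes and for 48.8% of all tested genes.

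**Figure D2:**
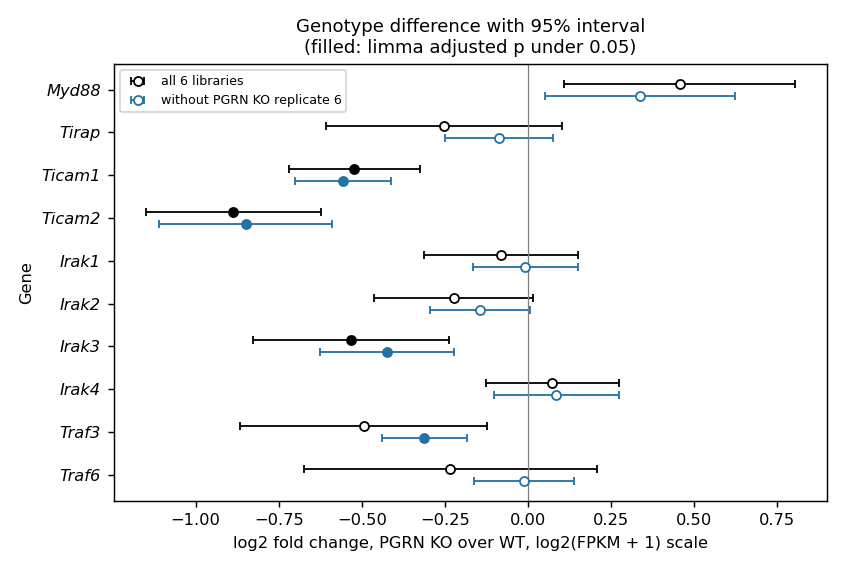
Log2 fold change of PGRN KO over WT for each gene on the log2(FPKM + 1) scale, with the 95% interval from limma, for all 6 libraries (black) and without PGRN KO replicate 6 (blue). Filled circles passed an adjusted p of 0.05; Ticam1, Ticam2 and Irak3 are filled in both fits and Traf3 in that without replicate 6.

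The adaptors of the TRIF branch were lower in PGRN KO. Ticam1 encodes TRIF itself. The WT libraries had 14.8, 14.1 and 13.6 FPKM and the PGRN KO libraries 9.13, 9.50 and 10.1 FPKM, from 473 to 740 fragments each. The groups did not overlap, and the mean in PGRN KO was 67.5% of that in WT, with 14.2 ± 0.594 against 9.57 ± 0.478 FPKM (SD, n = 3 each). This corresponded to a log2 fold change of -0.52 ± 0.08 (SE), for which limma gave an adjusted p of 0.00726. The call was kept in 17 of 18 alternative analyses and was lost without WT replicate 1, where the adjusted p was 0.0516. Ticam1 (ENSMUSG00000047123) lies on chromosome 17 from 56269319 to 56276786 on the minus strand of GRCm38, and none of its exons is shared with another annotated gene.

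Myd88, the adaptor used by most Toll-like receptors and by interleukin-1 family receptors, had the opposite direction. Its level was 25.6, 28.2 and 23.9 FPKM in the WT libraries, compared with 37.2, 29.2 and 42.4 FPKM in those of PGRN KO. Each PGRN KO library lay above each WT library, but PGRN KO replicate 5 exceeded WT replicate 2 by little. The mean was 25.9 ± 2.15 FPKM in WT versus 36.3 ± 6.67 FPKM in PGRN KO (SD, n = 3 each), and the log2 fold change of 0.46 ± 0.15 (SE), with a 95% interval of 0.11 to 0.80, did not pass (limma adjusted p 0.0626). Adjusted p ranged from 0.0151 to 0.183 over 18 alternatives, of which 7 called it higher, among them the TPM scale (0.0174), quantile normalization (0.0193) and the fit without PGRN KO replicate 5 (0.0248). Myd88 (ENSMUSG00000032508) lies on chromosome 9 from 119335934 to 119341411 on the minus strand. It shares 290 exon bases, 11.3% of its exon length, with Acaa1a on the opposite strand, a gene of peroxisomal fatty acid oxidation. Acaa1a rose, from 7.53, 8.27 and 7.46 FPKM in WT to 13.0, 10.1 and 17.3 FPKM in PGRN KO (for Acaa1a limma adjusted p 0.0320). The sources used here do not say whether the counting was strand-specific. Without strand the fragments of both genes in the shared bases cannot be told apart, and the part of this overlap in the Myd88 values was not tested.

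The promoters of these adaptors are shown because Ticam1 and Myd88 differed in direction. The sequences are from RefSeq on GRCm38.p6, read 5′ to 3′ along the gene, from 250 bases before to 50 bases after a start site. Capitals mark matches on either strand to GGNNNTTCC, the core letters of an NF-kB site, or GAAANNGAA, those of an interferon-stimulated response element. Myd88 is printed although it did not pass, and was chosen after its values were seen. It holds 1 match to each, GAAAGCGAA at position -40 from the start site and GGAAACTCC, a match on the other strand, at position 4, and its RefSeq start site lies within the deposited gene model. Ticam1 holds neither. Of the 9 members with a RefSeq promoter, 3 held the NF-kB letters, namely Myd88, Tirap and Traf3, and Tirap and Traf3 had negative log2 fold changes. The response element letters occurred in 2, Myd88 and Irak3, which differed in direction. Any relation of matches to direction was not tested. Among 32851 RefSeq promoters of this length, 18.5% held the NF-kB letters and 8.56% those of the response element. These shares count promoters, whereas the 9 members, with 12 promoters, were counted as genes, so the units differ. A match is no evidence of a bound site.
Ticam1, chr17:56276718-56277017, minus strand: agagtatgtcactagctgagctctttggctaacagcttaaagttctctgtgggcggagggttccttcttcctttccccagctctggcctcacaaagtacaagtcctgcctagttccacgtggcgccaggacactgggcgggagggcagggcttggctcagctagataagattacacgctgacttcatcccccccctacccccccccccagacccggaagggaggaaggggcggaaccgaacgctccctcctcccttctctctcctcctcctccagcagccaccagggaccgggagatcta
Myd88, chr9:119339969-119340268, minus strand: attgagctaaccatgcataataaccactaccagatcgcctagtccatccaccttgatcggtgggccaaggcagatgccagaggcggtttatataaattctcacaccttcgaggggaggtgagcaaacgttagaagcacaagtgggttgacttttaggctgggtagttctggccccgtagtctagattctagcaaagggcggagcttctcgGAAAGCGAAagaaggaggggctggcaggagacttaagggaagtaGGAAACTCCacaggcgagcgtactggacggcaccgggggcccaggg

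Tirap encodes the bridging adaptor that brings MyD88 to TLR2 and TLR4. It was expressed at 3.19 to 3.47 FPKM in WT, compared with 1.89 to 3.10 in PGRN KO. PGRN KO replicate 6 gave the lowest of these values, 1.89 FPKM, whereas replicates 4 and 5 had 3.10 and 3.06 FPKM, just below the WT range. The log2 fold change of -0.25, with a 95% interval of -0.61 to 0.10, did not pass (limma adjusted p 0.252), and without replicate 6 it was -0.09. Tirap lies on chromosome 9 from 35184551 to 35200291 and passed in none of 17 alternatives. On the opposite strand 446 of its exon bases (9.05%) are shared with Gm39318, at a mean of 0.0509 FPKM, and 39 with Srpr, a gene at 46.3 to 55.9 FPKM.

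Ticam2 showed the largest difference among the 10 genes. It encodes TRAM, the bridging adaptor that TLR4 needs to engage TRIF. WT libraries contained 7.47, 7.87 and 6.08 FPKM of it, PGRN KO libraries 3.45, 3.54 and 3.17 FPKM. All PGRN KO libraries lay close together and below the lowest WT library, and the mean of 3.39 ± 0.194 FPKM was 47.4% of the 7.14 ± 0.938 FPKM in WT (SD, n = 3 each), on 215 to 491 fragments per library. By limma the log2 fold change of -0.89 ± 0.11 (SE) had an adjusted p of 0.00343, and all 18 alternatives kept the call, with adjusted p from 0.000186 to 0.0271 and a log2 fold change from -1.07 to -0.80.

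The gene model of Ticam2 (ENSMUSG00000056130, chromosome 18, 46559155 to 46574533, minus strand) carries a reservation. The deposited length was 3928 bases, the exons of GENCODE release M21 cover 5792 bases, and 838 of these are shared on the same strand with Tmed7, which encodes a cargo receptor of early secretory transport. Its deposited coordinates also differ from those of that release, and fragments in the shared bases cannot be told apart by strand. Tmed7 itself had 20.6, 20.7 and 18.5 FPKM with progranulin and 15.7, 16.5 and 12.1 FPKM without it. The difference in Tmed7 did not pass with all libraries (log2 fold change -0.42, limma adjusted p 0.0555) and passed without PGRN KO replicate 6 (0.0182). The part of the overlap in the Ticam2 values was not tested.

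Since ratios within a library do not depend on how libraries are scaled to each other, the makeup of the adaptors was compared next. Of the summed FPKM of the 4 adaptors, Myd88 held 49.9%, 52.6% and 51.1% in WT libraries, as opposed to 70.3%, 64.4% and 73.7% in PGRN KO libraries. Ticam1 held 26.4% to 29.1% in WT and 17.3% to 21.0% in PGRN KO, and Ticam2 held 13.0% to 14.7% and 5.50% to 7.81%. For these 3 genes the groups were separate, the share of Myd88 being larger by 18.3 percentage points in PGRN KO and those of Ticam1 and Ticam2 smaller by 9.50 and 7.46 points (PGRN KO minus WT -9.50 and -7.46). The share of Tirap overlapped between genotypes (6.27% to 6.82% and 3.28% to 6.77%). The shares of a library add up to the whole, so they are not independent. Such ratios can still carry the trend with gene length in PGRN KO replicate 6. Without that library the differences were 16.2 points for Myd88, -8.96 for Ticam1 and -6.90 for Ticam2. For Tirap the difference was -1.31 points with it and -0.30 without it. An exact two-sided permutation test gave p = 0.1 for each of the 3 separate shares and 0.3 for Tirap. With 3 against 3 libraries 0.1 is the smallest p possible, and over the 9 ratios compared in this way the adjusted values were 0.1125 and 0.3.

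**Figure D3:**
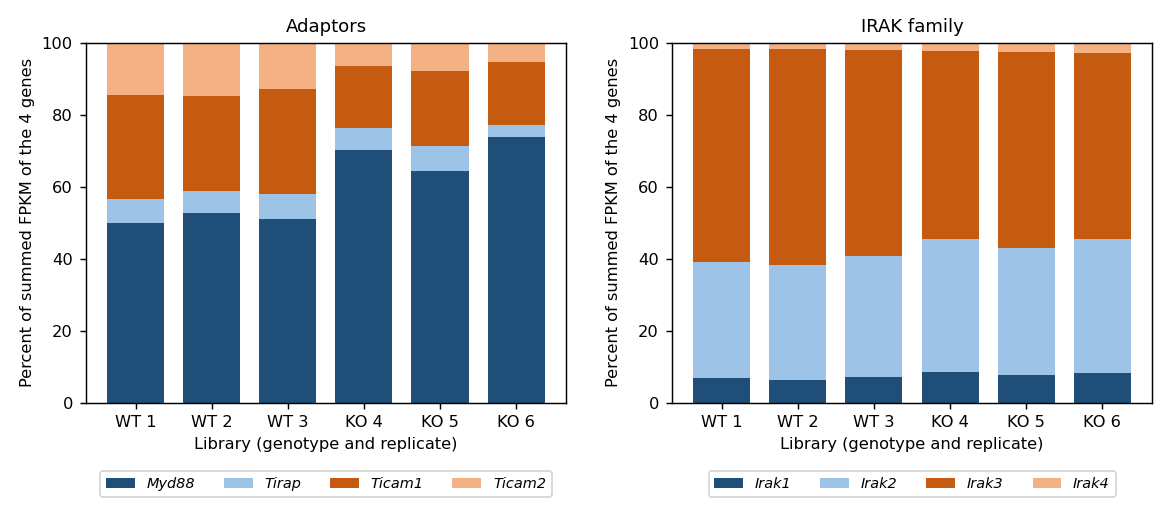
Percent of the summed FPKM of the 4 adaptor genes (left) and of the 4 IRAK genes (right) that each gene held in each library, numbered by replicate. Myd88 takes 64.4% to 73.7% of the adaptor total in PGRN KO against 49.9% to 52.6% in WT, and Irak3 takes 51.6% to 54.4% of the IRAK total against 57.2% to 60.0%.

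Among the IRAK genes only Irak3 passed. Irak3, which encodes the inhibitory family member IRAK-M, had WT levels of 53.1, 57.3 and 47.5 FPKM and PGRN KO levels of 38.5, 39.2 and 30.9 FPKM. The groups were separate, and the mean fell from 52.6 ± 4.88 to 36.2 ± 4.61 FPKM (SD, n = 3 each), which is 68.7% of the WT level. Limma gave a log2 fold change of -0.53 ± 0.12 (SE) and an adjusted p of 0.0242. The direction was the same in 18 of 18 alternatives and the call was kept in 11. It was lost without WT replicates 1, 2 and 3 (0.1004, 0.101 and 0.0532 in turn), on the TPM scale (0.0886), when no filter was set (0.0612), when libraries were scaled to their summed fragments (0.0533) and after quantile normalization (0.0505). Irak3 (ENSMUSG00000020227, chromosome 10, 120141648 to 120202130, minus strand) shares 192 exon bases with Tmbim4 on the opposite strand, a gene at 29.7 to 40.8 FPKM that did not pass (adjusted p 0.374).

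RefSeq gives Irak3 a pair of start sites, and both promoters are printed because it was the only IRAK gene that passed, with capitals as above. The downstream one holds no match, and the upstream one holds 1 match to the letters of the response element, TTCATTTTC on the other strand, at position -102 from its start site. The values count all transcripts of the gene together and do not say which start site was used.
Irak3 downstream start, chr10:120201548-120201847, minus strand: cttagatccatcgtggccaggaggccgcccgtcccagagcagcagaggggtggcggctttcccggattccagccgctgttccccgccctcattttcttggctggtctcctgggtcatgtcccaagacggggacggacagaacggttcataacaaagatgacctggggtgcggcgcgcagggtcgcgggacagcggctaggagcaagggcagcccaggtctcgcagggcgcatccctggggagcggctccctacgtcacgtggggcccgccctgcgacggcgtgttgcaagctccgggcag
Irak3 upstream start, chr10:120202081-120202380, minus strand: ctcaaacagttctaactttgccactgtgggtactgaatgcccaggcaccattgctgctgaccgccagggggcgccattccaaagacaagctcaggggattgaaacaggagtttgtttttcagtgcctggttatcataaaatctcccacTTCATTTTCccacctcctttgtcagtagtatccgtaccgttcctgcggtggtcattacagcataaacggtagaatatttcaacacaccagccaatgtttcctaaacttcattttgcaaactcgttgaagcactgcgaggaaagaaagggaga

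The other IRAK genes did not pass. Irak2, which sustains late Myddosome signalling, gave 29.0, 30.7 and 27.96 FPKM in WT against 27.1, 25.5 and 22.2 FPKM in PGRN KO. The groups were separate by a small margin, and the log2 fold change of -0.22 (95% interval -0.46 to 0.02) had a limma adjusted p of 0.149. Irak1, which TRAF6 binds after activation, was at 5.88 to 6.02 FPKM in WT and from 4.94 to 6.22 in PGRN KO, so that the groups overlapped (log2 fold change -0.08, 95% interval -0.31 to 0.15, limma adjusted p 0.577), and the sign of the difference changed in 3 of 18 alternatives. Irak4 was at 1.60 to 1.70 FPKM in WT, as against 1.75 to 1.87 in PGRN KO, with a log2 fold change of 0.07 (95% interval -0.13 to 0.27, limma adjusted p 0.555). Its groups were separate by a small margin, on 125 to 178 fragments per library. It shares 395 exon bases, 7.87% of its exon length, with Twf1 on the opposite strand. Twf1 had 10.3, 9.94 and 9.60 FPKM in WT and 11.2, 11.7 and 10.9 FPKM in PGRN KO, so its groups were separate too. Twf1 did not pass with all libraries (limma adjusted p 0.174) and passed without PGRN KO replicate 6 (0.0430). As for Myd88, fragments in the shared bases cannot be told apart without strand. The part of this overlap in the Irak4 values was not tested.

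Within the family, Irak3 held 59.2%, 60.0% and 57.2% of the summed IRAK FPKM of the WT libraries and 52.3%, 54.4% and 51.6% of that of the PGRN KO libraries. Its share was lower in each PGRN KO library, while that of Irak2 was 32.1% to 33.6% in WT and 35.3% to 37.2% in PGRN KO, and those of Irak1 (6.15% to 7.14% and 7.76% to 8.45%) and Irak4 (1.76% to 2.04% and 2.41% to 2.93%) were also separate. Each of these 4 differences reached only the smallest p that the exact permutation test allows, 0.1. They are not independent, since the shares of a library add up to the whole and a smaller share of Irak3 raises the others. The mean FPKM of Irak2 (29.2 in WT, 24.9 in PGRN KO) and Irak1 (5.94 and 5.59) was lower in PGRN KO although their shares were larger.

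The ubiquitin ligases differed in how much they depended on PGRN KO replicate 6. Traf3, which couples TRIF to TBK1 and also limits MyD88-dependent kinase activation, stood at 8.65, 8.80 and 8.70 FPKM in WT, compared with 6.87, 6.78 and 4.36 FPKM in PGRN KO. The WT libraries were nearly equal and all PGRN KO libraries lay below them. The log2 fold change of -0.49 ± 0.16 (SE) had a limma adjusted p of 0.0604. Without PGRN KO replicate 6 it was smaller at -0.31, yet it passed with an adjusted p of 0.00594. The 4 members then called lower, Traf3 with Ticam1, Ticam2 and Irak3, stand beside 25.1% of all tested genes called lower in that fit. With a correction for gene length and all 6 libraries Traf3 also passed (0.0376). Over 18 alternatives the adjusted p lay between 0.00504 and 0.191, under 0.05 in 4.

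Traf6, the ligase that links the Myddosome to TAK1, reached 17.7, 18.1 and 16.4 FPKM in WT, while PGRN KO libraries gave 17.1, 17.4 and 10.5 FPKM. PGRN KO replicates 4 and 5 lay within the WT range and replicate 6 far below it. Its log2 fold change was -0.23 (95% interval -0.67 to 0.21, limma adjusted p 0.388), and -0.01 without replicate 6. Traf6 and Traf3 have the longest gene models of the 10, at 7883 and 7350 bases, and were lower in PGRN KO replicate 6 than in the mean of replicates 4 and 5 by 0.66 and 0.55 on the log2 scale (differences of -0.66 and -0.55). Myd88, with the shortest model of 2576 bases, was higher in it by 0.36. Length did not order all 10 genes, since Irak4 (5021 bases) differed by -0.04 and the shorter Irak3 (3676 bases) by -0.32. The ratio of Traf6 to Traf3 was 1.88 to 2.06 in WT and 2.41 to 2.56 in PGRN KO, and replicate 6, at 2.41, was near the other PGRN KO libraries (exact permutation p = 0.1, the smallest possible). Traf3 lies on chromosome 12 from 111166370 to 111267153 and Traf6 on chromosome 2 from 101678429 to 101701669, both on the plus strand and with no exon shared with another annotated gene.

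Predicted, microRNA and clone-named genes were left out of a search for the tested genes most like Ticam2. By Pearson correlation of log2(FPKM + 1) over the 6 libraries, these were Bahd1 (0.9995), Id2 (0.998) and Antxr2 (0.998). These 6 points come from 2 groups and share the genotype difference, so that the values are a description only. Id2, an inhibitor of helix-loop-helix transcription factors, was measured at 412, 419 and 366 FPKM with progranulin and 262, 262 and 256 FPKM without it.

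To place these genes in their pathway, 6 lists were examined for their counts and medians, to be read beside the 13.8% of all tested genes that were lower and the 10.4% that were higher. Without PGRN KO replicate 6 these shares were 25.1% and 16.2%. Of 23 receptors and receptor partners 15 were expressed highly enough to be tested, and 1 was significantly higher, 3 lower and 11 did not pass (median log2 fold change -0.12, against -0.03 over all genes). Without PGRN KO replicate 6 there were 3 higher and 6 lower, and without WT replicate 1, 2 or 3 or PGRN KO replicate 4 or 5 there was 1 higher and 1 to 2 lower. Tlr3, the receptor of double-stranded RNA that signals through TRIF, rose from 1.76 ± 0.241 to 6.14 ± 1.52 FPKM, or by 1.35 on the log2 scale (limma adjusted p 0.00297). Tlr13, a receptor of bacterial ribosomal RNA that uses MyD88, fell from 13.0 ± 0.265 to 6.58 ± 1.19 FPKM (adjusted p 0.00509). Ly96, whose product MD-2 binds lipopolysaccharide with TLR4, fell from 18.5 ± 1.58 to 12.8 ± 1.88 FPKM (adjusted p 0.0284), and Tlr1, the partner of TLR2, from 6.91 ± 0.411 to 4.93 ± 0.590 FPKM (adjusted p 0.0304). Tlr3 and Tlr13 passed in every alternative, Ly96 in 11 of 18 and Tlr1 in 10.

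Downstream of the adaptors, 1 of 25 tested kinases and ubiquitin enzymes was higher, 2 were lower and 22 did not pass, with a median of -0.02. These calls were fragile, with 0 higher and 0 to 1 lower when any library but PGRN KO replicate 6 was left out, and 2 and 2 without that library. Birc2, a ubiquitin ligase of TRAF complexes, rose from 2.25 ± 0.281 to 3.21 ± 0.156 FPKM (limma adjusted p 0.0360). Ube2n, the conjugating enzyme that works with TRAF6, fell from 17.7 ± 0.820 to 13.1 ± 0.761 FPKM (adjusted p 0.0173), and Ripk1, a kinase that TRIF binds, from 6.72 ± 0.177 to 5.15 ± 0.496 FPKM (adjusted p 0.0415). Over the alternatives Ube2n passed in 13 of 18, Birc2 in 10 of 17 and Ripk1 in 8 of 18. Map3k7, which encodes TAK1, was at 6.77 ± 0.182 and 5.44 ± 1.04 FPKM (adjusted p 0.157). Tbk1, the kinase of IRF3, was at 33.7 ± 1.33 and 34.2 ± 2.87 FPKM (log2 fold change 0.02, adjusted p 0.903).

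Among 23 tested negative regulators 7 were lower, 2 higher and 14 did not pass, and the median was -0.23. Without PGRN KO replicate 6 there were 10 lower and 4 higher, and when another single library was left out 2 to 5 lower and 1 to 2 higher, the fewest without WT replicate 1. Tnip3, an A20-binding inhibitor of NF-kB, fell from 24.0 ± 4.11 to 11.4 ± 0.817 FPKM (limma adjusted p 0.00433). Tollip, whose product holds IRAK1 inactive, fell from 85.3 ± 1.47 to 51.7 ± 3.36 FPKM (adjusted p 0.00324), the libraries having 85.7, 86.5 and 83.7 FPKM and then 53.3, 54.0 and 47.9 FPKM. Pik3ap1, a TIR-containing adaptor that links to phosphoinositide 3-kinase, fell from 109 ± 5.29 to 66.5 ± 11.3 FPKM (adjusted p 0.0127). Cd300lf, an inhibitory receptor, rose from 2.73 ± 0.230 to 9.07 ± 0.785 FPKM (adjusted p 0.00119), and Tnip2 from 14.9 ± 1.03 to 19.8 ± 2.48 FPKM (adjusted p 0.0495), the latter in only 10 of 18 alternatives. Tnfaip3, which encodes the deubiquitinating enzyme A20, was at 182 ± 42.3 and 119 ± 18.4 FPKM and did not pass (adjusted p 0.0666). Sarm1, a further TIR adaptor, was listed at 0 in all 6 libraries, and Sigirr, an inhibitory receptor, was at 0 to 0.243 FPKM, so that neither was tested.

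Targets of each branch were counted in the same way, and the lists were not tested against each other. Of 17 tested targets of MyD88 and NF-kB 4 were lower, none was higher and 13 did not pass, with a median of -0.29. The study's text also names NF-kB among the pathways of C-type lectin receptors, so this list is not particular to MyD88. Without PGRN KO replicate 6 there were 7 lower, and 1 to 4 when another single library was left out, the fewest without WT replicate 1 or 2. Those that passed included Il10, which fell from 232 ± 56.8 to 77.2 ± 10.5 FPKM, with a log2 difference of -1.55 (limma adjusted p 0.00340), Nfkbiz (-0.85, adjusted p 0.0177) and Csf3 (-0.80, adjusted p 0.0160). Of 11 tested targets of TRIF and IRF3 7 were higher, none was lower and 4 did not pass, with a median of 0.97 and with 5 to 8 higher when each library was left out. In this list Mx1, Ifit3 and Ifit2 had the largest log2 fold changes at 1.91, 1.62 and 1.46 (adjusted p 0.00119, 0.00452 and 0.00343). These are interferon-stimulated genes, which also respond to interferon from other sources. Ifnb1, the direct product of the branch, was at 5.41 ± 1.67 and 7.25 ± 1.77 FPKM and did not pass (adjusted p 0.274). Ticam1 and Ticam2 were lower in the libraries in which these targets were higher, and the relation was not tested.

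Of 10 transcription factors at the end of the pathway, 4 were lower, 1 was higher and 5 did not pass, with a median of -0.30. There were 6 lower without PGRN KO replicate 6 and 1 to 5 when another single library was left out, the fewest without WT replicate 1 or 3. Irf5, which the Myddosome activates through TRAF6, rose from 35.5 ± 3.41 to 62.3 ± 9.65 FPKM (limma adjusted p 0.00925), a call lost only without WT replicate 1. Fos, Irf8 and Jun fell by 0.90, 0.57 and 0.57 on the log2 scale (adjusted p 0.00140, 0.0293 and 0.0131), and Irf8 passed in 13 of 18 alternatives.

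**Figure D4:**
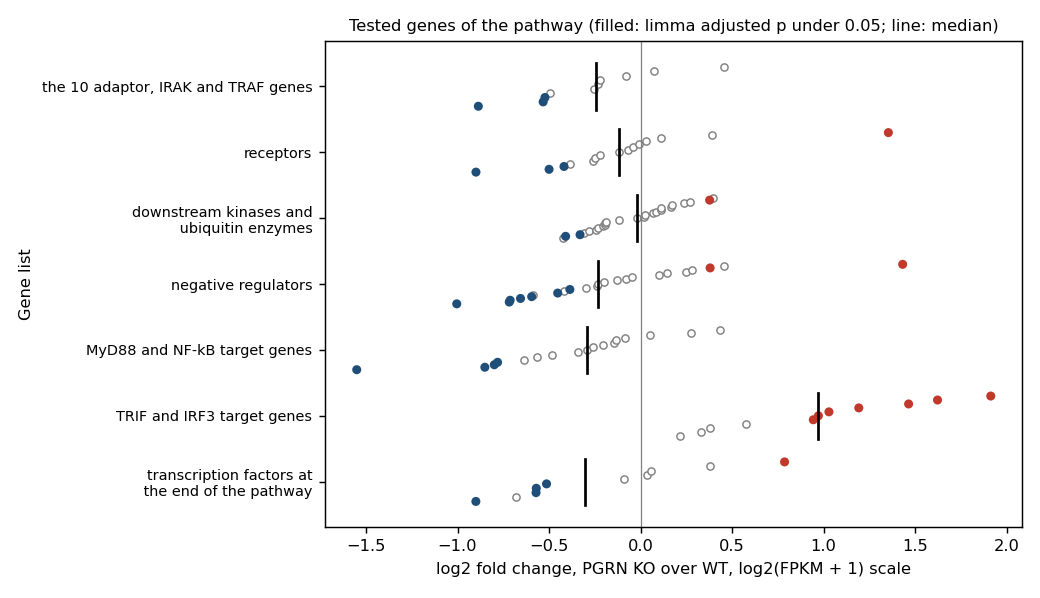
Log2 fold change of PGRN KO over WT on the log2(FPKM + 1) scale for each tested gene of the 10 and of 6 pathway lists, with filled circles for an adjusted p under 0.05 and a line at each list's median. The median is 0.97 for the targets of TRIF and IRF3, and lies at -0.24 for the 10 genes and between -0.30 and -0.02 for the other lists.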

How the data were processed

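Poly(A) RNA from 3 WT and 3 PGRN KO macrophage cultures was sequenced by the authors as paired-end reads. The study's methods name HISAT and HTSeq, whereas the submitters' processing notes name HISAT2 2.0.5 and featureCounts 1.5.0-p3 with GRCm38; the difference was not resolved. The authors deposited FPKM per gene and library. The study's own differential test models counts, so limma was used here instead. Of the deposited gene identifiers 99.8% were found in GENCODE release M21, 98.3% of them with the same coordinates.

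Values were analysed as log2(FPKM + 1), which understates changes of low genes. The 8882 genes whose mean FPKM reached 1 were tested with limma 3.58.1 in R 4.3.3 (empirical Bayes with a mean-variance trend, two-sided, no covariates) and adjusted by Benjamini-Hochberg over all of them with a threshold of 0.05. Ratios within libraries were compared by exact permutation. Deposited FPKM times gene length gave whole multiples of 1 step per library for 100.0% of values above 0 (tolerance 0.001 of a step), which gave the fragments per gene. The limma step was tested on simulated data. The simulated libraries had no trend with gene length and no outlying library, so that test does not cover these features of the data. The members and gene lists were chosen with earlier results of these data known. Named were all members, up to 3 called genes per direction and list with the largest change, and 6 pathway genes whatever their result. Protein sequences were not used here, and no promoter of Ticam2 is given. Alternatives covered pseudocounts, filters, scalings, weights, gene length (loess, span 0.5), voom on recovered fragments and each library left out.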

Additional observations from a re-analysis of the deposited data

How the results depend on the processing

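No paired analysis was possible because no replicate number occurs in both genotypes. The combination of length correction with leaving out PGRN KO replicate 6 was chosen after seeing the data. For changes given without a reason, the cause was not tested.

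Of the 2151 genes called (921 higher, 1230 lower), 1366 (603 and 763) were called with no filter, from more genes tested, and 4225 (1757 and 2468) with sample quality weights, which gave PGRN KO replicate 6 a weight of 0.0899. With a limit of 5 FPKM, from fewer genes tested, 529 were higher and 953 lower. The split turned to 911 higher and 593 lower on the TPM scale, 1179 and 695 when libraries were scaled to their summed fragments, and 1258 and 756 with voom, while length correction gave 1378 and 1423. Length correction without PGRN KO replicate 6 gave 3631 (1726 and 1905). Leaving out 1 library gave 713 to 3668 genes, 331 to 1438 higher and 382 to 2230 lower.

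No member was called higher in the main analysis and 1, Myd88, with the TPM scale, quantile normalization, scaling to summed fragments, sample quality weights, length correction and voom, and 0 to 1 with each library left out, the 1 being without PGRN KO replicate 5. The 3 members called lower became 1 to 4 with each library left out; only Ticam2 passed without WT replicate 1. Irak1 changed sign on scaling to summed fragments (0.0050), with voom (0.0053) and after length correction that left out PGRN KO replicate 6 (0.037), and Traf6 with the last (0.045), none of them past the threshold. Of the members' other comparisons 155 kept direction and call, 11 passed only in the alternative and 8 only in the main analysis. In shares of fragments instead of FPKM the difference for Ticam2 was -9.15 percentage points. The other ratios kept their direction in fragment shares and with each library left out. Depth limits Irak4 most, at 125 to 178 fragments per library. Scaled to summed fragments, the log2 fold change was -0.43 for Irak3 and 0.55 for Myd88. With the deposited scaling these were -0.53 and 0.46.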
